A study of Mus musculus with 79 samples.

Results

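The LIM homeobox genes encode transcription factors that carry a pair of LIM domains, which bind protein cofactors, ahead of a homeodomain, which binds DNA. 10 members, namely Lhx1, Lhx2, Lhx3, Lhx4, Lhx5, Lhx6, Lhx8, Lhx9, Isl1 and Isl2, were chosen by name among the 25965 genes of the RNA-seq table, and the family was selected because of the expression differences of Lhx4 and Lhx9 in that table. Expression values of the members are therefore given as a description without p-values, and any count of calls among them restates that choice, whereas the histone marks were not used in the choice.

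Hypothalamus was taken at an age of about 14 weeks. RNA-seq covered 5 +/+ and 4 Δ/D329A mice, and ChIP-seq for H3K4me3, H3K27me3, H3K36me3 and input covered 3 mice of each genotype. The study's legend on Dnmt and Tet transcripts gives the RNA-seq mice as female. Its legend on browser views gives both the RNA-seq and the ChIP-seq hypothalamus as male. Expression and marks may therefore come from mice of different sex. D329A is a missense mutation, aspartic acid to alanine, in the PWWP domain of the DNA methyltransferase DNMT3A at its endogenous locus, and was inherited from the father. Δ is a Dnmt3a allele deleted in the oocyte by Cre recombinase under the Zp3 promoter and was inherited from the mother, so that Δ/D329A mice have D329A as their only functional allele, whereas +/+ mice have both alleles intact. Both genotypes came from the same kind of cross on a C57BL/6Babr background, between females with a conditional allele and Zp3-Cre and males heterozygous for D329A. With +/+ as the only comparison group, loss of the maternal allele and the mutation of the paternal allele cannot be told apart.

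The PWWP domain binds nucleosomes with methylated H3K36. H3K4me3 marks active and poised promoters, H3K27me3 is laid down by Polycomb complexes at silent developmental genes, and H3K36me3 accumulates along transcribed gene bodies. Promoters with both H3K4me3 and H3K27me3 are called bivalent, and LIM homeobox genes are typical examples. The factors act with LDB cofactors and specify neuron types in pairs of close relatives. Lhx3 and Lhx4 act in the pituitary and in motor neurons, Isl1 and Isl2 in motor and sensory neurons with Isl1 also in arcuate neurons, Lhx1 and Lhx5 in the developing hypothalamus and in interneurons, Lhx2 and Lhx9 in thalamus and cortex, and Lhx6 and Lhx8 in interneurons and cholinergic neurons of the ventral forebrain.

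The RNA-seq values were scaled to totals of 13381689 to 18386072 reads in +/+ and 10519195 to 14638891 reads in Δ/D329A libraries, of which 5496722 to 9730686 and 3837934 to 6524613 lay on nuclear genes. The totals were 12676361 to 15944966 reads for H3K4me3, 14874942 to 26178088 for H3K27me3, 19056381 to 22850001 for H3K36me3 and 14708935 to 30207875 for input. All 11 hypothalamic markers listed for a check of the tissue were detected, with a summed level of 369 to 764 RPKM in +/+ and 434 to 641 RPKM in Δ/D329A. Dnmt3a itself, whose deletion and point mutation need not alter the total of its reads, stood at 3.275 to 4.31 RPKM in +/+ and 2.84 to 3.30 RPKM in Δ/D329A. Background in H3K4me3 was highest for Δ/D329A replicate 1, whose median tile held 0.314 RPM, that is reads scaled to a library of 1000000, against 0.0789 to 0.200 RPM in the other 5.

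Most members start in CpG-rich DNA. The 250 bases before the RefSeq start (GRCm38.p6) held between 4 and 33 CpG sites over 13 starts of 9 members, against a median of 6 over 32851 promoters, and Lhx8 and Lhx9, with 4 each, were below that median. The sequences of Lhx4, Isl2 and Isl1 are given 5′ to 3′ with CpG, the substrate of DNMT3A, in capitals. H3K4me3 did not overlap between genotypes at the promoter of Lhx4 and in the tile at the RefSeq start of Isl2, and Isl1 had the most CpG sites. Nor did it overlap at the promoters of Lhx8, with 4 CpG sites, and Lhx1, with 26, which are not printed. Lhx4 lies upstream of its start at chr1:155742028-155742277 (minus strand, 14 CpG sites), Isl2 at chr9:55540899-55541148 (plus strand, 16 CpG sites) and Isl1 at chr13:116309689-116309938 (minus strand, 33 CpG sites).
Lhx4: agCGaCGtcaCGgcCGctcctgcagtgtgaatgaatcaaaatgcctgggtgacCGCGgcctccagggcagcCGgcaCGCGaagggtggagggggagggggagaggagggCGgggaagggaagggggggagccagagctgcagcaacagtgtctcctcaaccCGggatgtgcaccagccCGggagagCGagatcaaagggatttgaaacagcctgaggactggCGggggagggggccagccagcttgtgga
Isl2: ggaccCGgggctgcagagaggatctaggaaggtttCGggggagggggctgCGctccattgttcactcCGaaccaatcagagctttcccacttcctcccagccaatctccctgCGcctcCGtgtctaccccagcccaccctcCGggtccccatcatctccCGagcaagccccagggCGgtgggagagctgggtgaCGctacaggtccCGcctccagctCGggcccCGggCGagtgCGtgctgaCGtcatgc
Isl1: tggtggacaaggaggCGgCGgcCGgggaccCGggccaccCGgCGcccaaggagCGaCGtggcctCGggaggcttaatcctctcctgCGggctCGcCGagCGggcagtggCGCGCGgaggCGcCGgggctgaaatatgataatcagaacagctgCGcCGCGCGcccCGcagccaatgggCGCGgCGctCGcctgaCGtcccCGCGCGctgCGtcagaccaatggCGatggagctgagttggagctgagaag
The letters TAATTA, a core bound by many homeodomains that reads the same on both strands, occurred in 0 of the 13 windows and in 1590 of all 32851 promoters (4.84%).

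Most members were expressed at a low level in the adult hypothalamus. By mean RPKM, which is corrected for length, the order in +/+ was Isl1 (2.88 ± 0.679, SD, n = 5), Lhx5 (1.38 ± 0.381), Lhx1 (0.996 ± 0.189), Lhx2 (0.548 ± 0.152), Lhx9 (0.519 ± 0.136) and Lhx6 (0.516 ± 0.211), followed by Lhx8, Lhx3, Isl2 and Lhx4 at under 0.1 RPKM each. Isl1 did not overlap with Lhx5, since its lowest library stood at 1.93 RPKM and the highest of Lhx5 at 1.76 RPKM, whereas Lhx5 and Lhx1 overlapped and Lhx2, Lhx9 and Lhx6 did not differ beyond their spread. In Δ/D329A the order was Isl1 (2.29 ± 0.429, n = 4), Lhx5 (1.47 ± 0.225), Lhx9 (1.22 ± 0.492), Lhx6 (0.766 ± 0.0988), Lhx1 (0.707 ± 0.146), Lhx2 (0.678 ± 0.0804) and Lhx4 (0.369 ± 0.0681), so that Lhx4 moved from the last to the seventh place and Lhx9 from the fifth to the third. In the limma fit over all genes 8 of the 10 members passed the filter on low values and 1, Lhx4, was called, against 0.107% of all 17839 genes tested, and DESeq2 on recovered reads called Lhx4 and Lhx9, against 0.804% of genes called higher. Nothing is read from these counts, since both genes were the reason for the choice. Lhx4 had to differ to pass that filter, since it was above the limit of 0.1 RPKM in no +/+ library.

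**Figure D1:**
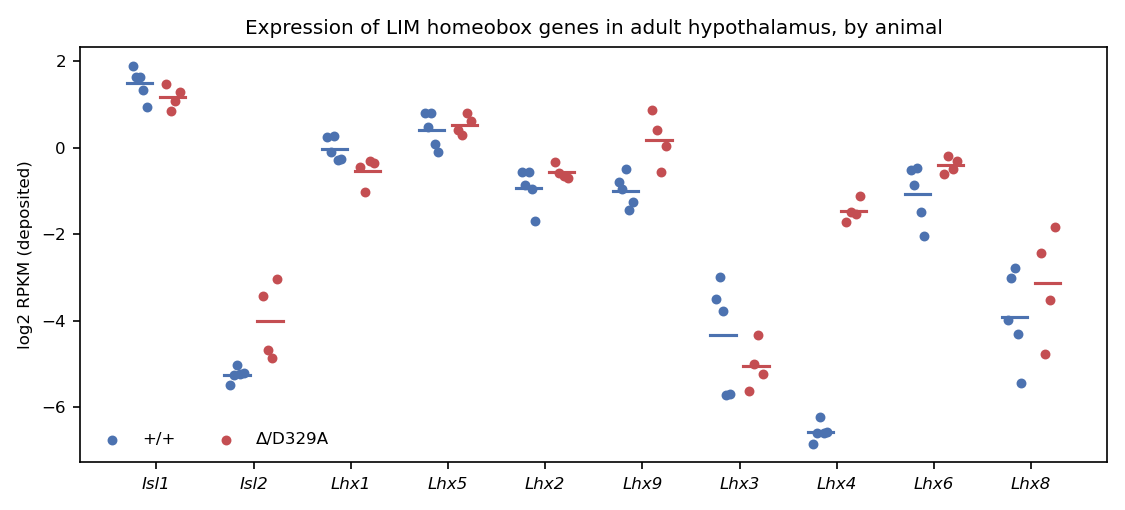
Deposited log2 RPKM of the 10 LIM homeobox genes in each of the 5 +/+ (blue) and 4 Δ/D329A (red) RNA-seq libraries, with short lines for the group means. Lhx4 stands apart between the genotypes, Lhx9 is higher in 3 of 4 Δ/D329A libraries than in any +/+ library, and genes without a read in a library are drawn at the floor of 0.9 reads.

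Lhx4, a pituitary and motor neuron factor, showed the widest separation of the genotypes. The 5 +/+ libraries held 0, 0, 1, 0 and 1 reads on Lhx4, and the 4 Δ/D329A libraries 25, 21, 26 and 29 reads. Every Δ/D329A library was therefore far above every +/+ library, in spite of fewer reads in all. Over the summed reads per read on nuclear genes, Δ/D329A had 81.2 times the level of +/+ (exact 95% interval of counting error 21.9 to 679). Groups with all Δ/D329A values above all +/+ values were found for 1.27% of the genes tested. In bulk tissue, more cells with Lhx4 RNA and more RNA per cell cannot be told apart.

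Lhx3, the closest relative of Lhx4, did not follow it. Lhx3 had 5, 6, 3, 0 and 1 reads in +/+ and 0, 1, 2 and 0 reads in Δ/D329A. The groups overlapped, and the ratio of Δ/D329A to +/+ was 0.321 with an interval of 0.0597 to 1.14. Of 8 listed targets and partners of the pair, only 3 were expressed enough to be tested, and Pou1f1 had at most 1 read in any library. The summed level of 11 anterior pituitary markers was 3.92 to 18.7 RPKM in +/+ and 4.83 to 13.4 RPKM in Δ/D329A, and that of 7 pineal markers 1.28 to 3.57 and 1.15 to 1.87 RPKM. These ranges overlapped. Of the pituitary markers 8 were tested, none was called by limma, edgeR or DESeq2 and 1 had an unadjusted p under 0.05, with Gh (1.93) and Cga (0.50) higher and Tbx19 (−1.66) and Prl (−1.06) lower on the log2 scale, all with overlap. Gh had 0 to 67 reads in +/+ and 6 to 72 in Δ/D329A. The part of pituitary tissue in the values of Lhx3 and Lhx4 was not tested.

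The Lhx4 promoter carried both H3K4me3 and H3K27me3 in both genotypes. H3K4me3 from 1500 bp before to 500 bp after the start was 4.05, 3.16 and 2.59 RPM in +/+ and 5.24, 5.76 and 7.00 RPM in Δ/D329A. All 3 Δ/D329A values thus exceeded all 3 +/+ values, as for 1.83% of all promoters, with a log2 difference of 0.87 (SE 0.21, limma adjusted p = 1). When promoters with a mean under 0.5 RPM were left out, Lhx4 passed the threshold of 0.05 (limma adjusted p = 0.0364), as did 0.322% of promoters in that direction. In the tile with the highest H3K4me3, which holds the first exon, the values were 4.11, 3.52 and 2.96 RPM in +/+ and 5.90, 5.84 and 8.003 RPM in Δ/D329A. H3K27me3 at the promoter was 5.54, 5.25 and 5.97 RPM in +/+ and 4.77, 4.85 and 5.08 RPM in Δ/D329A (log2 difference −0.18, SE 0.09, limma adjusted p = 0.61). The H3K27me3 values of Δ/D329A were thus all lower, and their mean was 0.88 times that of +/+. H3K36me3 over the gene body was 0.246, 0.298 and 0.265 RPM in +/+ and 0.421, 0.319 and 0.364 RPM in Δ/D329A (log2 difference 0.34, SE 0.12, limma adjusted p = 0.274).

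At Lhx3 the marks differed in another way. In +/+, H3K4me3 formed a peak 5.3 kb inside the gene over several coding exons, with 3.48, 3.79 and 5.06 RPM. In Δ/D329A the same tile held 0.502, 1.26 and 1.10 RPM, which is 0.232 times the mean of +/+, without overlap. This tile was named after its values had been seen, and its input did not separate the genotypes (0.612 to 1.07 RPM in +/+ and 0.761 to 1.198 RPM in Δ/D329A). Δ/D329A replicate 3 had H3K4me3 nearer the start instead, with 2.26 RPM at 1.3 kb, where the other 5 animals held 0.0657 to 0.690 RPM. H3K36me3 over the body of Lhx3 was 0.163, 0.284 and 0.239 RPM in +/+ and 0.7095, 0.428 and 0.502 RPM in Δ/D329A (log2 difference 0.97, SE 0.22, limma adjusted p = 0.223), and edgeR on recovered reads called it (adjusted p = 0.0142). H3K27me3 over the body was 6.46, 5.31 and 5.89 RPM in +/+ and 4.12, 4.43 and 4.63 RPM in Δ/D329A (log2 difference −0.41, SE 0.10, limma adjusted p = 0.343).

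**Figure D2:**
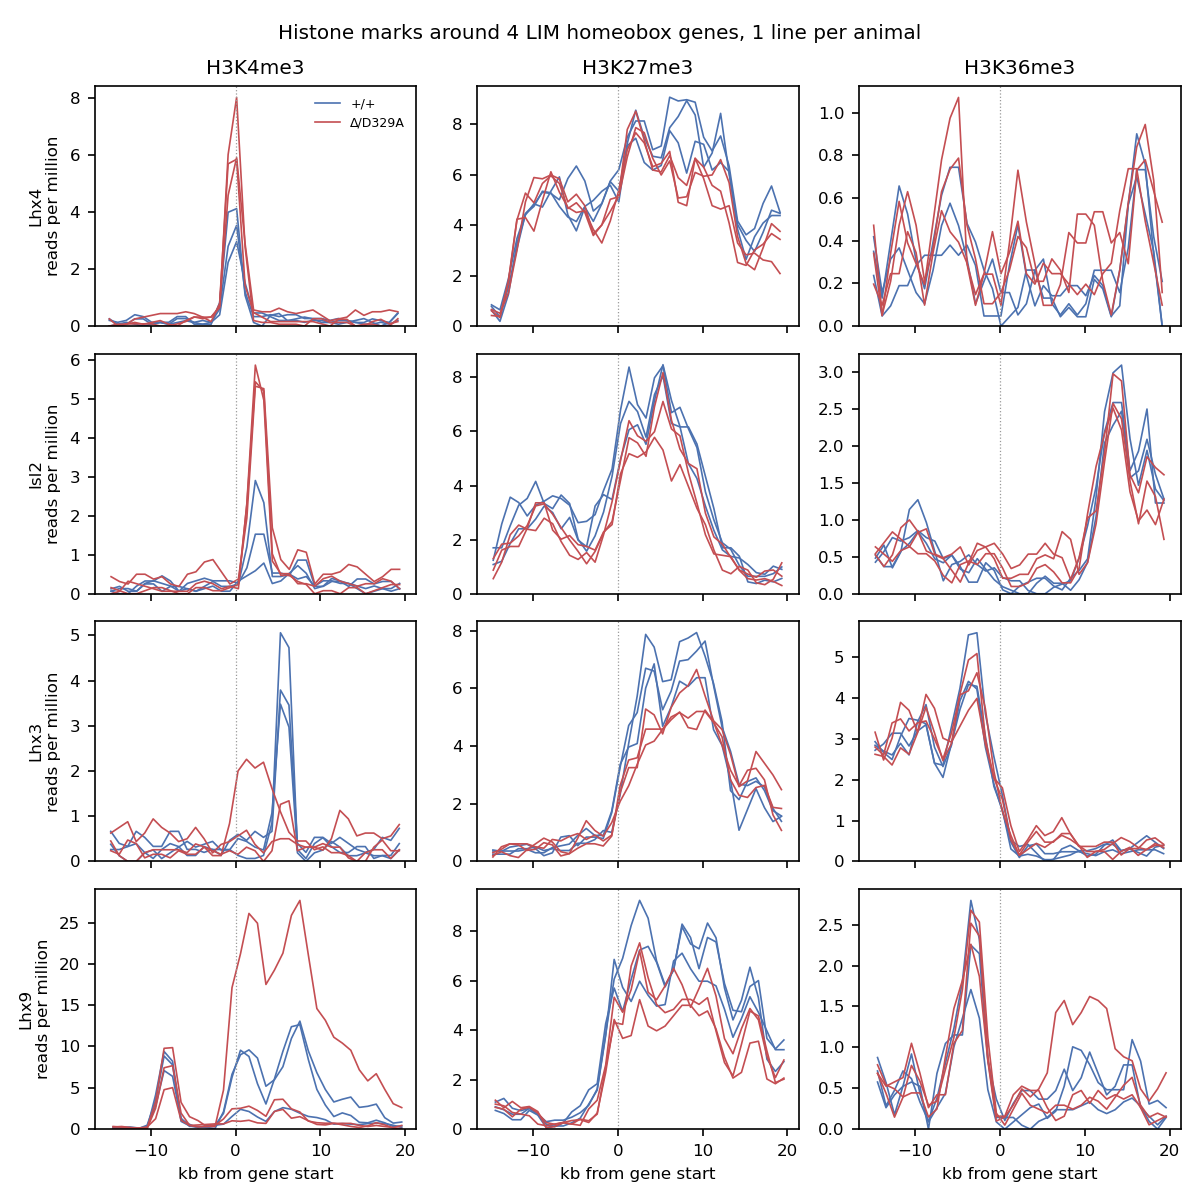
H3K4me3, H3K27me3 and H3K36me3 in RPM per tile of 2 kb against the distance in kb from the gene start for Lhx4, Isl2, Lhx3 and Lhx9, with 1 line for each of the 3 +/+ (blue) and 3 Δ/D329A (red) animals. The H3K4me3 peaks of Lhx4 and Isl2 are higher in every Δ/D329A animal, the peak inside Lhx3 is lower in each, and at Lhx9 the animals of 1 genotype lie far apart. Each panel has its own scale from 0.

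Isl2, a motor neuron factor, had almost no RNA in either genotype, yet its H3K4me3 separated them. RNA-seq gave 0, 0, 0, 0 and 1 reads in +/+ and 3, 0, 1 and 3 reads in Δ/D329A, a ratio of 11.3 with a wide interval of 1.45 to 507, and the libraries overlapped. The start in the RNA-seq table lies 2477 bp before the RefSeq start and the first exon of the coding transcript, so that the promoter by the table missed the peak. In the tile at 2.3 kb, which holds that first exon, H3K4me3 was 2.91, 1.53 and 0.591 RPM in +/+ and 5.33, 5.44 and 5.87 RPM in Δ/D329A, 3.31 times higher by the means. All Δ/D329A values were higher, and they varied less among animals than those of +/+. This tile was named after its values had been seen. At RefSeq starts all Δ/D329A values were above all +/+ values for 3 of 9 members and for 1.57% of all 16001 starts. Around the RefSeq start the log2 difference was 1.76 (SE 0.46, limma adjusted p = 1), and over the gene body it was 1.36 (SE 0.26, limma adjusted p = 0.635). Without genes of a mean under 0.5 RPM the body of Isl2 passed the threshold (limma adjusted p = 0.0459), as did 0.0965% of genes in that direction.

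Isl2 also had the largest log2 difference of H3K36me3 over gene bodies among the members. The values were 0.0875, 0.102 and 0.120 RPM in +/+ and 0.501, 0.218 and 0.435 RPM in Δ/D329A (log2 difference 1.21, SE 0.25, limma adjusted p = 0.223), and edgeR called it (adjusted p = 0.00591). They rest on 7 to 36 reads a library, and the means of every member, Isl2 among them, lay below those of input over gene bodies. H3K27me3 over the body stood at 6.79, 6.68 and 7.41 RPM in +/+ and 5.07, 6.18 and 6.13 RPM in Δ/D329A (log2 difference −0.26, SE 0.11, limma adjusted p = 0.389). The stretch with more than 3 times the median tile of H3K27me3 around the start spanned 23.3 ± 5.51 kb in +/+ and 13.7 ± 1.15 kb in Δ/D329A (SD, n = 3), without overlap. Such stretches were measured only at the members, so no share of all genes stands beside this.

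Isl1, which acts in Pomc and Agrp neurons of the arcuate nucleus, was the member with the most RNA. It had 271, 194, 164, 155 and 129 reads in +/+ and 162, 75, 111 and 108 reads in Δ/D329A, with a log2 difference of RPKM of −0.32 (SE 0.21) and overlap. Its listed target Pomc had 139 to 643 reads in +/+ and 30 to 156 in Δ/D329A (log2 difference −1.06, limma adjusted p = 0.355), and Agrp differed by 0.14. H3K27me3 at the Isl1 promoter was 5.10, 5.94 and 5.16 RPM in +/+ and 3.09, 4.11 and 3.53 RPM in Δ/D329A. All Δ/D329A values were lower, and the log2 difference was −0.59 (SE 0.13, limma adjusted p = 0.406). It passed the threshold without promoters under 0.5 RPM (limma adjusted p = 0.0354) and in edgeR (adjusted p = 0.0127). H3K4me3 at Isl1 varied from 3.49 to 18.2 RPM within +/+ and from 12.5 to 16.3 RPM within Δ/D329A. The lowest value was that of +/+ replicate 2, and the other +/+ animals had 11.5 and 18.2 RPM.

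Lhx1 and Lhx5, factors of the developing hypothalamus, had the highest mean H3K4me3 at promoters in +/+ among the members. Lhx1 had 105, 70, 78, 61 and 68 reads in +/+ and 52, 25, 52 and 42 reads in Δ/D329A. By RPKM, 0.817 to 1.21 in +/+ and 0.493 to 0.812 in Δ/D329A, the libraries just failed to overlap (log2 difference −0.50, SE 0.21), as in this direction for 1.24% of the genes tested. A gene on the other strand, 1500016L03Rik, starts 355 bp inside Lhx1 and differed by −0.52. Whether reads were counted by strand is not given in the sources used here, so that the assignment of reads in their overlap is uncertain. H3K4me3 at the Lhx1 promoter was 14.0, 14.5 and 11.6 RPM in +/+ and 9.03, 8.40 and 10.4 RPM in Δ/D329A. It was lower in all Δ/D329A animals, as at 4.22% of promoters (log2 difference −0.52, SE 0.13, limma adjusted p = 1). Over the body of Lhx1 the difference of H3K4me3 was −0.91 (SE 0.17, limma adjusted p = 0.632), again without overlap, as for 4.5% of gene bodies. Lhx1 was the only member with a lower H3K36me3 over its body (0.625 ± 0.0752 RPM in +/+ and 0.454 ± 0.1297 RPM in Δ/D329A, SD, n = 3), and these groups overlapped.

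Lhx5 had 92, 62, 67, 47 and 45 reads in +/+ and 56, 37, 66 and 49 reads in Δ/D329A, with a log2 difference of 0.12 (SE 0.22). H3K4me3 at its promoter was 21.98, 18.4 and 20.8 RPM in +/+ and 15.0, 14.4 and 18.8 RPM in Δ/D329A (log2 difference −0.35, SE 0.14, limma adjusted p = 1). The groups overlapped by a single animal of each genotype. When each H3K4me3 library was centred on its median promoter, the median of all promoters moved by 0.21 on the log2 scale, from −0.07 to 0.14, and the members then counted 8 higher and 2 lower in place of 5 and 5.

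Lhx9 and Lhx2, which mark thalamic and cortical neurons in development, stood out by the spread between animals. Lhx9 had 72, 55, 65, 39 and 48 reads in +/+ and 183, 95, 61 and 78 reads in Δ/D329A. By RPKM, 0.369 to 0.713 in +/+ and 1.84, 1.33, 0.674 and 1.03 in Δ/D329A, 3 of the 4 Δ/D329A libraries were above all +/+ libraries and replicate 3 was not (log2 difference 1.18, SE 0.35). Lhx2 had 55, 38, 40, 35 and 23 reads in +/+ and 51, 31, 37 and 30 reads in Δ/D329A, with a log2 difference of 0.35 (SE 0.22) and overlap.

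H3K4me3 at Lhx9 and Lhx2 differed more within a genotype than between them. In the highest tile of Lhx9, 7.6 kb inside the gene by the table, it was 12.6, 1.93 and 13.1 RPM in +/+ and 1.51, 27.7 and 2.07 RPM in Δ/D329A. In that of Lhx2, 12.7 kb inside the gene, it was 21.0, 5.59 and 15.7 RPM in +/+ and 8.91, 29.8 and 13.7 RPM in Δ/D329A. Δ/D329A replicate 2 was highest at both genes, and +/+ replicate 2 was the lowest of its genotype at both. The log2 difference of H3K4me3 at the promoter was −0.05 for Lhx9 with an SE of 1.06, and −0.04 for Lhx2 with an SE of 0.60 (both limma adjusted p = 1). Even a difference as large as these errors would not have been detected at either gene.

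Thalamic markers differed in the same direction as these genes. The list of 8 markers was chosen with earlier results of these data known, so its direction is not independent evidence. Each was higher in Δ/D329A by its mean in RNA-seq, with a median log2 difference of 0.74. For 3 of them (Synpo2, Plekhg1 and Rora) all Δ/D329A values were above all +/+ values, as for 1.27% of the genes tested. None of the 8 was called by limma at an adjusted p of 0.01, 5 had an unadjusted p under 0.05, and edgeR and DESeq2 called 0. The share of all genes under that unadjusted limit is not given here for RNA-seq, so nothing is read from the 5. Their summed level was 56.5 to 86.4 RPKM in +/+ and 79.0 to 109 RPKM in Δ/D329A. Gbx2, a regulator of thalamic identity, had 11 to 53 reads in +/+ and 37 to 122 in Δ/D329A. In ChIP-seq, made from other libraries, H3K4me3 at the promoters of 8 of 8 thalamic markers was highest in Δ/D329A replicate 2, as at Lhx9 and Lhx2, and 6 of them were lowest in Δ/D329A replicate 1. This order was common, since replicate 2 was highest at 57.9% and replicate 1 lowest at 81.6% of all promoters with a mean of at least 0.5 RPM, and nothing particular to thalamic markers is read from it. At Gbx2 it was 0.506, 0.732 and 3.94 RPM in +/+ and 0.753, 6.745 and 0.613 RPM in Δ/D329A. The 11 hypothalamic markers had a median log2 difference of 0.03 and limma, edgeR and DESeq2 called 0 of them, with 2 at an unadjusted p under 0.05. Among them Pomc (−1.06) and Sim1 (−0.82) were lower and Crh (0.71) and Otp (0.57) higher by the mean, and Sim1 did not overlap. The part of thalamic tissue in the values of Lhx9 and Lhx2 was not tested.

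**Figure D3:**
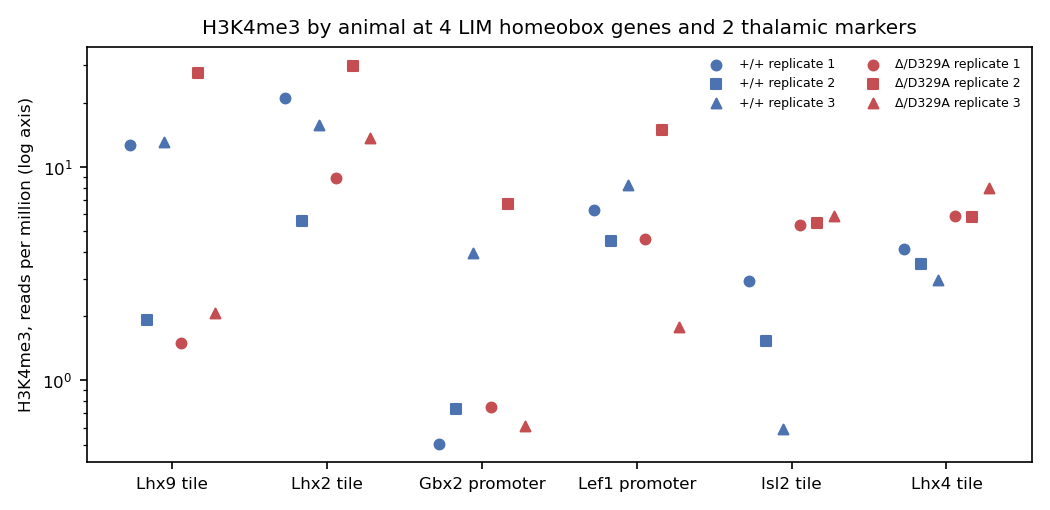
H3K4me3 in RPM on a log axis in each of 6 animals, for the tile with the highest mean at Lhx9, Lhx2, Isl2 and Lhx4 and for the promoters of the thalamic markers Gbx2 and Lef1. Squares in red, Δ/D329A replicate 2, are the highest points at Lhx9, Lhx2, Gbx2 and Lef1, whereas at Isl2 and Lhx4 all 3 Δ/D329A animals (red) lie above all 3 +/+ animals (blue).

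H3K27me3 was steadier at Lhx9. At the promoter it was 5.32, 4.95 and 4.98 RPM in +/+ and 3.39, 3.36 and 3.96 RPM in Δ/D329A (log2 difference −0.50, SE 0.10, limma adjusted p = 0.38), and edgeR called it (adjusted p = 0.0172). All Δ/D329A values were lower. The RefSeq start lies 6132 bp downstream of the start in the table, and around it H3K27me3 was 5.92, 6.12 and 6.10 RPM in +/+ and 4.77, 4.37 and 6.14 RPM in Δ/D329A, so that the groups overlapped there. H3K36me3 over the body of Lhx9 was 0.449, 0.206 and 0.426 RPM in +/+ and 0.309, 0.855 and 0.351 RPM in Δ/D329A, with replicate 2 again the highest.

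Lhx6 and Lhx8, factors of ventral forebrain interneurons and cholinergic neurons, were low and did not separate the genotypes in RNA-seq. Lhx6 had 63, 42, 47, 27 and 20 reads in +/+ and 47, 45, 46 and 44 reads in Δ/D329A (log2 difference 0.68, SE 0.32). Lhx8 had 3, 5, 5, 2 and 1 reads in +/+ and 7, 1, 3 and 8 reads in Δ/D329A (0.77, SE 0.80). H3K4me3 at the Lhx8 promoter was low but did not overlap, with 0.664, 0.532 and 0.657 RPM in +/+ and 1.29, 1.18 and 2.55 RPM in Δ/D329A (log2 difference 1.23, SE 0.41, limma adjusted p = 1). Without promoters under 0.5 RPM it passed the threshold by a narrow margin (limma adjusted p = 0.0496). H3K36me3 over the body of Lhx8 was 0.370, 0.328 and 0.366 RPM in +/+ and 0.538, 0.489 and 0.474 RPM in Δ/D329A (log2 difference 0.40, SE 0.09, limma adjusted p = 0.224). Over the body of Lhx6 it was 0.419, 0.336 and 0.332 RPM in +/+ and 0.569, 0.468 and 0.657 RPM in Δ/D329A (0.52, SE 0.14, limma adjusted p = 0.232), and edgeR called it (adjusted p = 0.0343). Both genes were thus higher in every Δ/D329A animal.

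Across the family H3K27me3 was high in both genotypes. The +/+ means of the members were 3.66 to 6.96 RPM over gene bodies, against a median of 0.468 RPM over all genes, and the lowest member stood above 98.1% of genes. At promoters they were 2.23 to 7.03 RPM against 0.483 RPM, above 91.7% of promoters or more. Over gene bodies H3K27me3 was lower by the mean in Δ/D329A for 10 of 10 members, in each of the 9 settings and with any library left out. All 3 Δ/D329A values were below all 3 +/+ values for 9 members, the exception being Lhx5, against 14.7% of all genes and 38.3% of the 480 genes with at least the H3K27me3 of the lowest member. The median log2 difference was −0.31 over the members, −0.17 over those 480 genes and −0.07 over all genes. No member was called by limma at an adjusted p of 0.05 (adjusted p 0.343 to 0.448), as 0.00846% of all gene bodies were, and edgeR called 0, whereas 7 members had an unadjusted p under 0.05 as did 13.0% of all genes. Isl1 had the largest difference (−0.46, SE 0.12), with 6.42, 7.37 and 6.07 RPM in +/+ and 4.27, 5.29 and 4.86 RPM in Δ/D329A.

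At promoters 9 of 10 members were lower in H3K27me3 by the mean, Lhx1 being higher by 0.11 on the log2 scale, and 4 (Lhx4, Lhx9, Isl1 and Isl2) did not overlap, against 7.31% of all promoters. Limma called 0% of promoters and no member, although 3 members had an unadjusted p under 0.05, as did 8.90% of promoters. Leaving out promoters under 0.5 RPM gave calls of lower H3K27me3 at 0.38% of promoters, with Isl1 among them, and edgeR at 0.808%, with Isl1, Lhx9 and Isl2 among them. The H3K27me3 domain around the start, counted in tiles above 3 times the library's median tile, measured 18.0 kb at Lhx3 to 45.7 kb at Lhx2 in +/+. Its width differed by a median of −2.67 kb, and by −6.83 kb and −4.5 kb with limits of 2 and 5 times the median tile. Isl2 did not overlap at any of the 3 limits, whereas Lhx9 (27 kb in every +/+ animal and 25.7 ± 0.577 kb in Δ/D329A, SD, n = 3) overlapped at the limit of 2 times. Lhx8 did not overlap at 2 and 5 times, Lhx1 at 2 times and Lhx2 at 5 times. At 3 times, 8 members were narrower by the mean and 2 wider, Lhx3 by 3.67 kb and Lhx4 by 3.33 kb. At 5 times the width at Lhx3 was counted as 0 kb in every Δ/D329A animal and in +/+ replicate 1. There the tile at the start, from which widths are counted, fell below the limit (2.08, 2.64 and 2.39 RPM in Δ/D329A, 2.33 RPM in +/+ replicate 1). Tiles further inside the gene were above it, with 5.18, 5.16, 5.84 and 7.61 RPM at 7.3 kb. This count is thus not an absence of H3K27me3, and it enters the median at 5 times. Widths were not measured at other genes, so no share of all domains stands beside these.

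**Figure D4:**
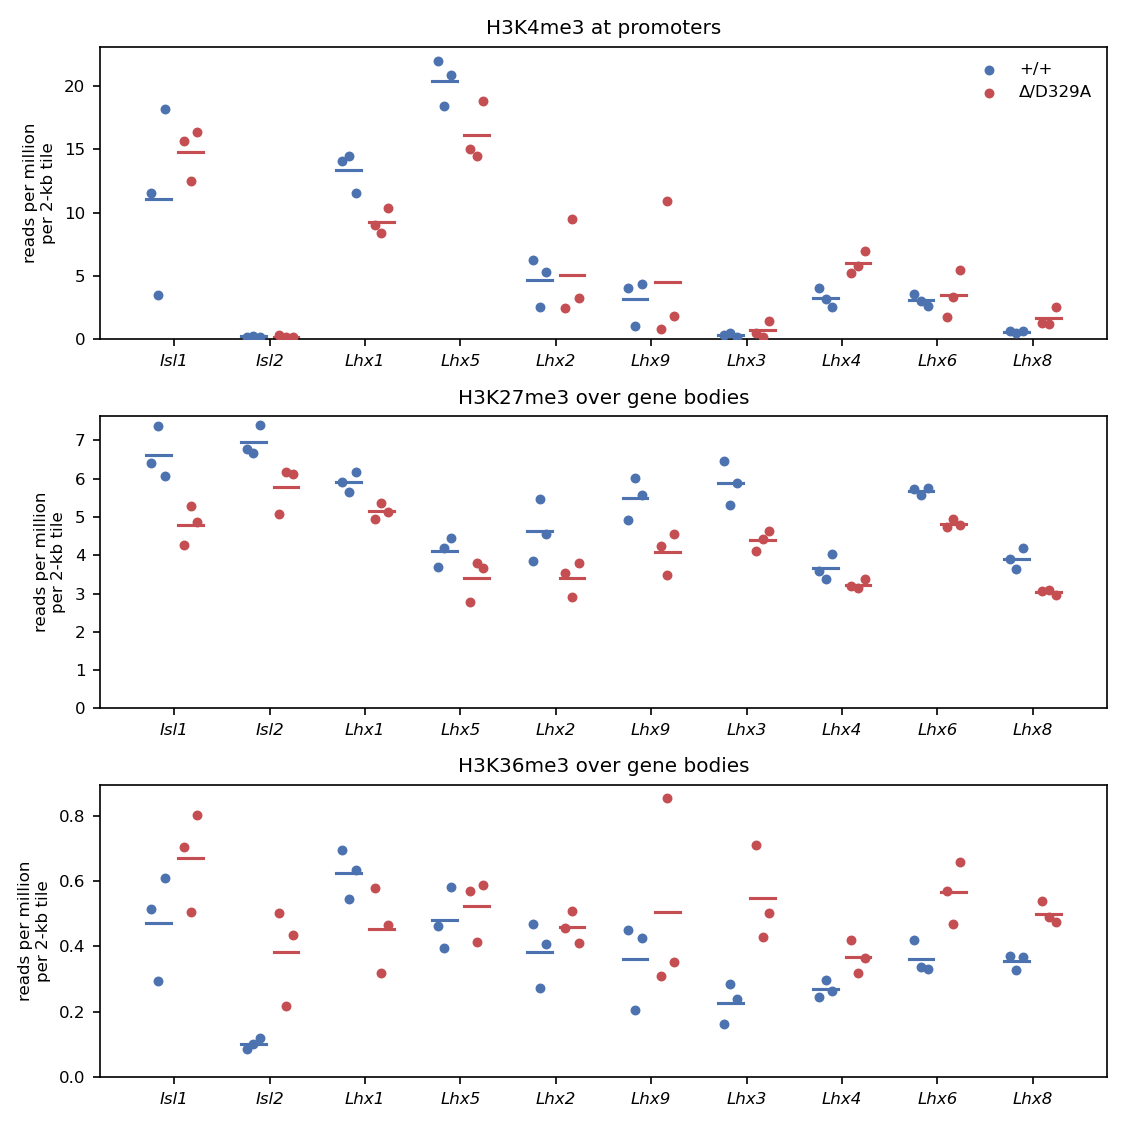
H3K4me3 at promoters, H3K27me3 over gene bodies and H3K36me3 over gene bodies of the 10 LIM homeobox genes, in mean RPM per tile of 2 kb, with 1 point for each of 3 +/+ (blue) and 3 Δ/D329A (red) animals and short lines for the means. H3K27me3 is lower in every Δ/D329A animal at all genes but Lhx5, and the H3K4me3 of Lhx9 and Isl1 is spread widely within a genotype.

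H3K36me3, which tracks transcription, was low over the members, and its mean was higher in Δ/D329A for most of them. Over gene bodies the +/+ means were 0.103 to 0.625 RPM, all below the median of 0.791 RPM of all genes. They also lay below input over the same bodies, at 0.704 to 0.946 RPM in +/+. The differences of H3K36me3 thus lie at a level without enrichment, and transcription is not read from them. H3K36me3 was higher by the mean in Δ/D329A for 9 of 10 members, with a median log2 difference of 0.37 against −0.02 over all genes. For 5 members (Lhx3, Lhx4, Lhx6, Lhx8 and Isl2) all Δ/D329A values were above all +/+ values, against 7.14% of gene bodies. Limma called 0% of gene bodies and no member, 5 members had an unadjusted p under 0.05 as did 16.1% of genes, and edgeR called 0.561% of gene bodies higher, with Lhx3, Lhx6 and Isl2 among them. The input over the same bodies, which measures background, was higher by the mean for 8 members with a median of 0.09, and its groups overlapped for all 10.

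At promoters H3K36me3 was higher by the mean for 10 of 10 members (median log2 difference 0.59, all promoters 0.11), and for 9 after each library was centred on its median, which moved the median of all promoters from 0.11 to −0.10. For 3 members (Lhx8, Isl1 and Isl2) the groups did not overlap, against 8.99% of promoters. These values rest on few reads, for example 0 to 7 a library at Isl1. Limma called 0.0231% of promoters and no member, 3 members had an unadjusted p under 0.05 as did 6.58% of promoters, and edgeR, which could test 2 members, called neither. As a ratio to input the count fell to 7 higher and 3 lower. Lhx3 was the exception in level, with 1.74 ± 0.309 RPM in +/+ and 1.81 ± 0.104 RPM in Δ/D329A (SD, n = 3). This signal rose away from the gene, to 3.70 to 5.55 RPM over the 6 libraries at 3.7 kb before the start. At 1.3 kb inside Lhx3 it was 0.306 to 0.876 RPM, so the promoter level is not read as particular to Lhx3.

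**Figure D5:**
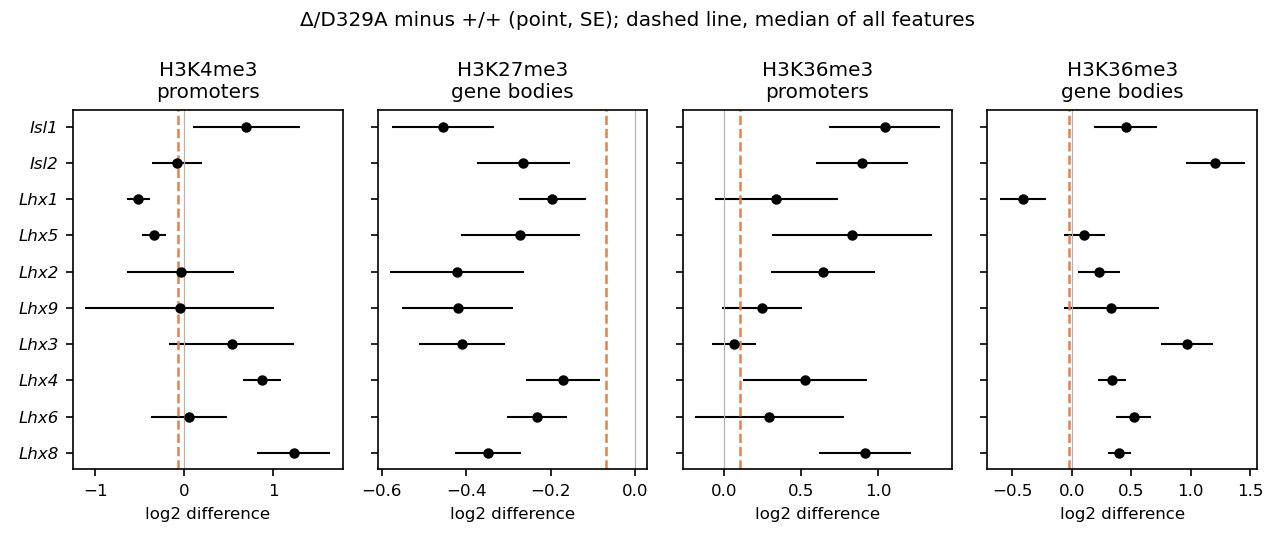
Log2 difference (Δ/D329A minus +/+) with its SE for each of the 10 LIM homeobox genes, for H3K4me3 and H3K36me3 at promoters and H3K27me3 and H3K36me3 over gene bodies, on a separate scale in each panel. The dashed line marks the median of all promoters or gene bodies. All 10 genes lie to its left for H3K27me3, and the genes fall on both sides of it for H3K4me3.

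H3K4me3 took no common direction. At promoters 5 members were higher and 5 lower by the mean, with 2 above (Lhx4 and Lhx8) and 1 below (Lhx1) without overlap, and over gene bodies Isl2 was above and Lhx1 below, against 2.14% of gene bodies above. Limma called 0% of promoters and 0% of gene bodies, with no member among them, 4 and 2 members had an unadjusted p under 0.05 (3.47% of all promoters and 3.53% of all gene bodies), and edgeR called no member in either, with 8 members tested at promoters. The median log2 difference of the members was 0.00 at promoters and 0.08 over gene bodies.

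None of the listed cofactors and tested targets was called. Of 10 cofactors, among them the LIM domain binders Ldb1 and Ldb2, the LIM-only proteins Lmo1 to Lmo4 and the ligase Rlim, all were tested and none was called by limma, edgeR or DESeq2, with 0 at an unadjusted p under 0.05 and a median log2 difference of −0.01. The largest were those of Lmo1 (0.24), Lmo3 (−0.22), Ssbp2 (0.21) and Ldb2 (0.21). The family's remaining genes, Lmx1a and Lmx1b, differed by −0.46 and 0.63 (limma adjusted p = 0.843 and 0.588). Of the reported targets and partners 20 were present, 14 of them were tested, none was called by any of the 3 tools, 1 had an unadjusted p under 0.05, and 4 were higher and 10 lower by the mean. Vip, a target of Lhx1, differed by −0.71 (limma adjusted p = 0.378), Slc5a7, the choline transporter downstream of Lhx8, by −1.05 (limma adjusted p = 0.402), and Hcrt, a target of Lhx9, by −0.25 (limma adjusted p = 0.861). Of the further marker lists, 9 for nearby brain regions and cell types, none had a gene called by limma, edgeR or DESeq2, 0 to 2 genes a list had an unadjusted p under 0.05, and their medians ranged from −0.70 for ventral interneurons and motor neurons to 0.34 for cortex.

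Few genes of the table overlapped a member or started within 10 kb of a member's start, and genes that only end nearby were not listed. Besides 1500016L03Rik, the table holds Gm13584 within Lhx2 and Gm17226 across the start of Isl2, both without a read in any library, AI606473 next to the start of Lhx8 with at most 3 reads, and 2310009B15Rik before Lhx9, which differed by 0.42 (limma adjusted p = 0.788). The 2 genes whose levels over the 9 libraries were most like Lhx5, after the genotype means were taken off, were Rbm4b and Rfk (Pearson r = 0.98 for both), and those most like Isl1 were Synj2bp and Tacr3 (0.99 for both), among 11490 genes. These values describe libraries that share depth and dissection, and Isl1 and Lhx5 had r = 0.73 with each other.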

How the data were processed

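RNA-seq of 9 and ChIP-seq of 24 hypothalamic libraries were used, and the 4 ChIP libraries of a number came from the same animal. Per the study's methods, 1 more Δ/D329A RNA-seq sample failed quality control and was not used. Bisulfite libraries were not analysed here. Expression was deposited by the authors as log2 RPKM, from trimmed reads aligned to GRCm38 and summed in SeqMonk across the merged exons of each gene. For ChIP-seq of native chromatin cut with micrococcal nuclease, the authors deposited the signal as RPM (reads scaled to a library of 1000000) over tiles of 2000 bp every 1000 bp, without division by length and without subtraction of input. The submitters' processing notes name Trim Galore 0.4.3, HISAT2 2.0.5 and Bowtie2 2.3.2, and the study's methods give other versions. Ribosomal RNA was depleted, and the study describes the RNA kit as specific for the opposite strand, but whether strand was used in counting is not given in the sources used here.

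The members and all lists were chosen with earlier results of these data known. Whole reads were recovered within 0.02 reads for 99.99% of genes in RNA-seq and within 0.01 reads for single tiles in ChIP-seq. Since tiles overlap, ChIP-seq reads over a promoter or gene body were estimated as the summed tile reads divided by 2 and rounded. These estimates were used in edgeR and are the reads a library given for marks. Genes with no read stand at 0.9 reads in the deposited values. Expression was compared with limma 3.58.1 (trend, R 4.3.3) over nuclear genes that reached 0.1 RPKM in 4 or more libraries, which leaves out the 13 mitochondrial genes, with two-sided p-values adjusted by Benjamini-Hochberg and a limit of 0.01. Marks were averaged over tiles centred from 1500 bp before to 500 bp after the start, or from 500 bp after the start to the end of the gene, and compared with limma on log2(RPM + 0.1) at an adjusted p under 0.05. A fold on this scale understates the change of low genes. Standard errors of expression of the members come from the variances within each genotype, and those of marks from limma. Alternatives were another pseudocount, filters, median centring, edgeR 4.0.16 and DESeq2 on recovered reads, a replicate block, a block by mitochondrial coverage, the ratio to input, other regions and leaving out each library. The H3K27me3 domain limit was also set at 2 and 5 times the median tile. Starts given by RefSeq were added after the data had been seen. The fits of expression without a block were first tested on simulated data with known changes. So were those of H3K4me3 and H3K27me3 at promoters and of H3K27me3 and H3K36me3 over gene bodies. The other marks and regions, the blocks and the ratio to input were not tested this way. Simulated counts were changed only at features with enough reads. Intervals cover counting error only. Starts, exons and tiles follow GENCODE vM21 and RefSeq for GRCm38. The genes named besides the members are up to 4 of each list by call and then size of the difference, rows that overlap a member or start within 10 kb of one, and for members at 1 RPKM or more the 2 genes most like each.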

Additional observations from a re-analysis of the deposited data

How the results depend on the processing

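In RNA-seq, whose values chose the family, 1 member was called, 0 at a limit of 0.5 RPKM, at which Lhx4 was not tested, and 2 by DESeq2, and no stability is read from these counts. Over all genes 19 were called in the first fit, 11 at 0.5 RPKM, 34 after median centring, 77 by edgeR and 249 by DESeq2. H3K4me3 at promoters gave 2 members and 277 promoters with a mean of at least 0.5 RPM, 28 promoters with centring and 52 with edgeR. H3K27me3 at promoters gave 1 member and 222 promoters with that filter, 3 members and 251 promoters with edgeR, 54 promoters with centring, 4 with a region of 5000 bp on each side and 2 at RefSeq starts. For H3K36me3 at promoters the 6 calls became 0 with a pseudocount of 1 RPM, the filter, centring, the replicate block or the ratio to input, and 2 with edgeR or RefSeq starts. H3K4me3 over gene bodies gave 1 member and 46 genes with the filter, 4 with centring and 1 with the ratio to input or the whole gene. H3K27me3 over gene bodies gave 16 calls with the filter, 25 with edgeR, 1 with a pseudocount of 1 RPM, centring or the whole gene and 0 with the replicate block, the block by mitochondrial coverage or the ratio to input, against 2. H3K36me3 over gene bodies gave 3 members and 156 genes with edgeR and 2 genes with the whole gene. Leaving out 1 library at a time gave 12 to 22 calls in RNA-seq (12 without Δ/D329A replicate 1 or 4), with 1 member each time, 5 to 19 for H3K36me3 at promoters (19 without Δ/D329A replicate 1, 15 without replicate 2, 10 without replicate 3 or without +/+ replicate 1), 0 to 4 for H3K36me3 (4 without Δ/D329A replicate 1, 3 without replicate 2, 2 without replicate 3, 1 without +/+ replicate 1) and 0 for H3K27me3 over gene bodies, with 0 members in each mark. The cause of these differences was not tested.

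Replicate numbers are shared by the genotypes. The same-numbered deviations correlated at −0.071 to 0.133 in RNA-seq and at no mark above 0.1 in every pair. For H3K27me3 at promoters (0.013 to 0.078) and H3K36me3 over gene bodies (0.024 to 0.04), all 3 +/+ animals correlated best with their own number. In RNA-seq and the other marks and regions 1 or 2 did. A pairing of the animals was thus not shown, which does not exclude it. With the replicate block, which drops +/+ replicate 5, 16 genes and 1 member were called in RNA-seq, from 4 libraries of each genotype. Of 1191 recomputed differences of members 1147 kept their side of the threshold or moved by less than the spread, 33 moved further, 11 crossed the threshold upwards and 75 had the opposite sign, 0 of them called. The labels name no batch, so the block was a split of the libraries of each mark by mitochondrial coverage. It was run for H3K4me3 and H3K27me3, where the ratio between the sets was 1.54 and 1.75. For H3K36me3 and input the ratio was 1.14 and 1.15, so it was not run, which does not exclude a batch. Precision was limited by 3 animals a genotype and, at H3K36me3 promoters other than that of Lhx3, by 0 to 14 reads a library.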
